A study of Mus musculus with 12 samples.

Results

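Trimethylation of lysine 27 of histone H3 (H3K27me3) was examined at 8 homeobox genes that pattern the head and the limbs: Otx1, Otx2, Emx1, Emx2, Pitx1, Pitx3, En1 and En2. They were taken by name from the GENCODE M1 annotation of the mouse genome (mm9), all 8 were found, and they stand among 22367 protein-coding genes. For each gene the share of bases under peaks was measured in its promoter, defined as the transcription start site (TSS) ± 2500 bp, and over the gene body ± 5 kb. Lists of H3K27me3 peaks from 10 ChIP-seq libraries were used, in 6 conditions.

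All libraries came from C2 iMEFs, a single clone obtained by limiting dilution of mouse embryonic fibroblasts immortalised with retroviral c-Myc. Per the methods, the clone carried an Ezh2 allele flanked by loxP sites, an already deleted Ezh2 allele and a tamoxifen-dependent Cre (ROSA26-CreERT2), and Ezh2 was removed with 4-hydroxytamoxifen. The labels call the undeleted cells Ezh2 WT/WT and the deleted cells Ezh2 -/-, and they are called wild type and knockout here. Experiment 1, read with 75-bp SOLiD reads and an Active Motif antibody, held 2 wild-type and 2 knockout libraries. Experiment 2, read with 100-bp HiSeq reads and antibody clone 7b11, held 2 wild-type and 2 knockout libraries together with 1 Ezh1 and 1 Ezh2 pre-rescue library. In a pre-rescue, Flag-tagged Ezh1 or Ezh2 was stably expressed from a retrovirus before the endogenous gene was deleted. The labels number the replicates, and the study calls its H3K27me3 measurements biological replicates without saying how the cultures were kept apart. A p-value here measures the spread between these libraries of 1 clone. Exact permutation of 2 against 2 libraries cannot give a two-sided p below 0.33 (n = 2 and 2), and no difference reported here can go below that value.

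H3K27me3 is laid down by Polycomb repressive complex 2, whose catalytic subunit is Ezh2 or its paralogue Ezh1, and it marks developmental regulators that a cell type keeps silent. The Otx, Emx, Pitx and engrailed families encode homeodomain transcription factors. Otx and Emx factors pattern the forebrain and midbrain, engrailed factors act at the boundary of midbrain and hindbrain, and Pitx factors act in the hindlimb, the pituitary, the lens and the midbrain dopaminergic neurons.

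The lists differed widely in extent, and this touches every value that follows. Peaks covered 141 and 177 Mb in the wild type of experiment 1, 24.3 and 56.7 Mb in its knockout, 14.9 and 11.3 Mb in the wild type of experiment 2, and 0.0588 and 0.481 Mb in its knockout. The Ezh1 rescue list covered 256 Mb and the Ezh2 rescue list 80.6 Mb, so that the wild-type lists of experiment 2 stood below both rescue lists made with the same antibody and platform. A list of peaks does not tell a weaker mark in every cell from a mark carried by fewer cells. The Ezh2 promoter lay outside peaks in all 10 lists, which says nothing of the deletion, so the genotype labels could not be checked at the targeted gene. Of 15 fibroblast marker genes, 0 had a promoter peak in both wild-type lists of experiment 1, against 20.1% of all genes. In the knockout lists of experiment 1, however, the intermediate filament gene Vim had 34.0% and 25.5% of its promoter under peaks, and Lox, a collagen cross-linking enzyme, had 9.34% in the first. Of the same markers, Fbn1 had 17.0% in the Ezh1 and 15.0% in the Ezh2 rescue list, and Thy1 had 2.34% in the Ezh1 rescue list. Peaks do not measure expression. The methods describe scaling coefficients for the knockout and Ezh1 rescue libraries, set from the amount of DNA recovered, and the lists do not show whether these were applied before peaks were called. A knockout value of 0% therefore says that no peak was listed, not how far the mark was reduced.

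In the wild type of experiment 1, the promoters of 5 of the 8 genes (Otx2, Emx1, Pitx1, Pitx3 and En2) carried peaks in both lists, and those of Otx1, Emx2 and En1 carried none. Over all protein-coding genes, 20.1% had a promoter peak in both of these lists. Each of the Otx, Emx and engrailed families thus had a gene with and a gene without promoter peaks, whereas Pitx1 and Pitx3 both had them. Otx1, Emx2 and En1 had no promoter peak in any of the 10 lists, as had 59.0% of all genes.

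Otx2, required for the formation of the forebrain and midbrain, had 70.3% and 100% of its promoter under peaks in the 2 wild-type libraries of experiment 1 (85.2% ± 21.0, SD, n = 2). Pitx1, which specifies hindlimb identity, had 84.1% and 100% (92.1% ± 11.2, SD, n = 2). At both genes the second library was fully covered and the first was not. Pitx3, a factor of the lens and of midbrain dopaminergic neurons, had 86.5% and 85.9% (86.2% ± 0.382, SD, n = 2). Emx1, expressed in the dorsal telencephalon, had 75.8% and 77.9% (76.9% ± 1.5, SD, n = 2). En2, which shapes the cerebellum, had the lowest promoter coverage of the 5, with 64.1% and 63.1% (63.6% ± 0.679, SD, n = 2). Ordered by these means the genes run Pitx1, Pitx3, Otx2, Emx1 and En2. Both values of Pitx3 lay within the ranges of Pitx1 and Otx2, and both values of Emx1 within that of Otx2, so none of these neighbours in the order differed beyond its spread. Both values of En2 were below all 8 values of the other marked genes. Among all genes with peaks in a list, the median promoter coverage was 39.2% and 45.9% in these 2 libraries.

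**Figure D1:**
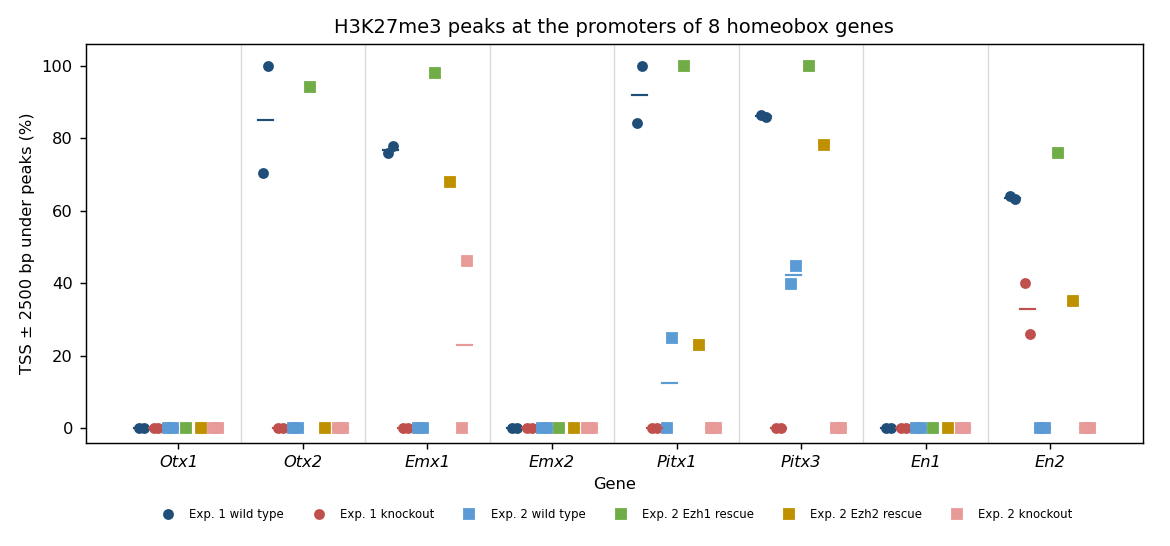
Percent of the promoter (TSS ± 2500 bp, vertical axis) under H3K27me3 peaks for each of the 8 genes (horizontal axis). Circles are libraries of experiment 1, squares libraries of experiment 2, colours the conditions, and short lines the means of 2 libraries. Otx1, Emx2 and En1 lie at 0 in every library, and En2 is the gene with knockout values above 0 in experiment 1, at 40.0% and 26.0%.

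The gene bodies gave the same division with 1 small exception. With 5 kb on either side, the 2 wild-type libraries of experiment 1 covered 60.7% and 95.5% of Otx2, 66.9% and 71.4% of Emx1, and 80.5% and 86.5% of Pitx1. They covered 74.4% and 80.2% of Pitx3 and 80.5% and 83.1% of En2. En2, lowest of the 5 at its promoter, was thus among the most covered over its body. Emx2 and En1 were at 0 in all 10 lists, as were 40.0% of all genes. Otx1, an Otx gene of the cerebral cortex and the sense organs, had 1.08% in the second wild-type library, from a 196-bp peak that began 12927 bp downstream of its start, beyond the gene's end, and 0 in the other lists.

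**Figure D2:**
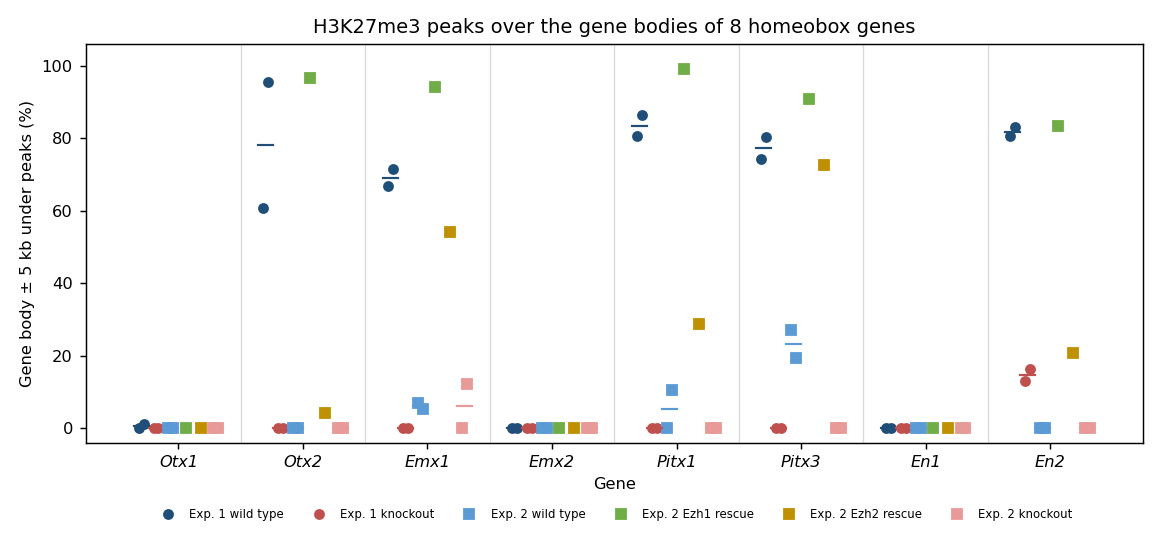
Percent of the gene body ± 5 kb (vertical axis) under H3K27me3 peaks for each of the 8 genes (horizontal axis), with symbols as in the plot of promoter coverage. Knockout values of En2 in experiment 1 are 13.1% and 16.2%, against 80.5% and 83.1% in wild type.

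The domains at the marked genes were wide. Overlapping peaks of the 2 wild-type lists of experiment 1 were joined into regions. The region over the Pitx1 start was 27096 bp wide (chr13:55933351-55960446, mm9) and that over the Otx2 start 13416 bp (chr14:49279478-49292893). At Emx1 a region of 26683 bp ended 47 bp upstream of the start (chr6:85110703-85137385), and another of 11895 bp began 1037 bp downstream of it. At Pitx3 the pair measured 3020 bp upstream and 11437 bp downstream (chr19:46211206-46222642), and the downstream region covered most of the gene. At En2 a region of 23730 bp upstream ended 265 bp before the start (chr5:28468242-28491971), followed by regions of 3013 bp and 13801 bp within and beyond the gene. The start base itself lay outside peaks at 4 of the 5 genes in the first library and at 3 of 5 in the second, against 75.3% and 70.2% of all genes with a promoter peak in those lists. The peak-free stretch around the start was 1210 and 1104 bp long at Emx1, and 677 and 704 bp at Pitx3. It was longest at En2, at 1797 and 1845 bp.

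**Figure D3:**
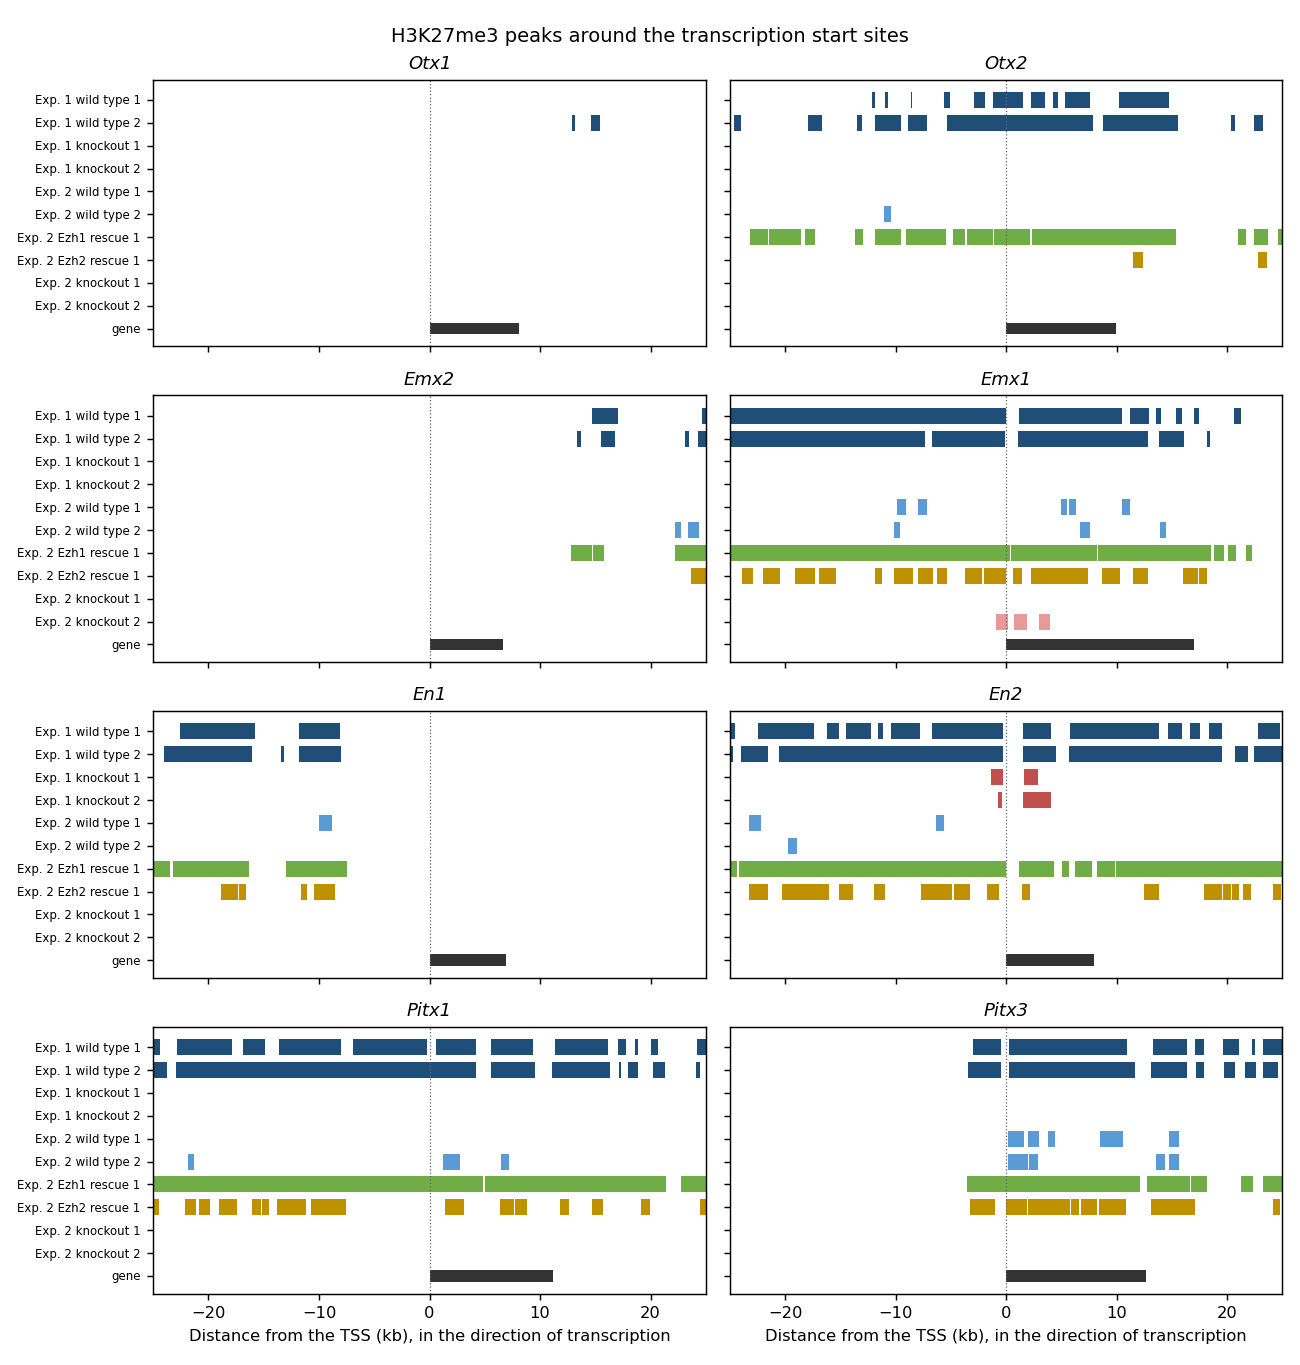
Peaks within 25 kb of the TSS of each gene, to scale, with distance from the TSS in kb on the horizontal axis in the direction of transcription and 1 line per library. Bars are peaks, the dark bar at the bottom is the gene and the dotted line its TSS. Left panels from the top are Otx1, Emx2, En1 and Pitx1, and right panels Otx2, Emx1, En2 and Pitx3. Peaks of the wild type of experiment 1 and of the Ezh1 rescue run across much of the marked genes and stop 7445 bp or more upstream of En1.

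The 3 genes without promoter peaks differed in what lay around them. En1, the engrailed gene of the midbrain, the hindbrain and the ventral limb ectoderm (chr1:122498995-122505873, plus strand), had peaks on its upstream side in wild type. In experiment 1 they lay within -22593 to -8125 bp of the start in the first library and within -24027 to -7996 bp in the second. The Ezh1 rescue peaks came to 7445 bp from the En1 start, those of the Ezh2 rescue to 8545 bp, and a peak of 1 wild-type library of experiment 2 to 8845 bp. The upstream peaks of these 5 lists thus ended between 7445 and 8845 bp before the start, and no peak of any list lay in the gene. Within 25 kb of the En1 start, 20.9% and 24.2% of bases were under peaks in the wild type of experiment 1. The same measure was 5.38% and 5.47% at Emx2, the Emx gene of the cortex and the urogenital tract, whose nearest wild-type peaks lay 14686 and 13299 bp downstream of the start. It was 0 and 1.98% at Otx1. The marked genes ranged in this measure from 26.6% at Otx2 in the first library to 87.1% at En2 in the second.

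The promoter sequences of Emx1 and Emx2 are shown because within this pair 1 promoter was under peaks and the other was not. Each is the 250 bases before the TSS on the plus strand of mm9, 5′ to 3′, with CpG dinucleotides in capitals. Emx1 is chr6:85137182-85137431 and Emx2 chr19:59532930-59533179.
Emx1: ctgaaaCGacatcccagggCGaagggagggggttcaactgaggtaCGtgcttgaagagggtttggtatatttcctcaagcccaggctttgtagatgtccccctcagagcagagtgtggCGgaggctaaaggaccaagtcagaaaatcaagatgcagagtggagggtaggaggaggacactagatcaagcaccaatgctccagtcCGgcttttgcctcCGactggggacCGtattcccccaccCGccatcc
Emx2: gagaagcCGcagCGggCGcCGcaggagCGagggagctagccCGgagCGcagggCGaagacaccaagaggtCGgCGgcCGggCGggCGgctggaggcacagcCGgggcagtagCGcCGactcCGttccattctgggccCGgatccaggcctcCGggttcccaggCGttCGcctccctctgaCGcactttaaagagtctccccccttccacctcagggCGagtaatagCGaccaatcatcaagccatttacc
In these stretches CG, which reads the same on both strands, occurred 8 times at Emx1 and 24 times at Emx2, with a median of 8 over all protein-coding genes. The unmarked promoter was thus the richer of this pair. So it was in the Otx pair, with 17 at the unmarked Otx1 and 6 at Otx2. The engrailed pair went the other way, with 22 at the unmarked En1 and 25 at En2. Across the whole promoter window of 5001 bp, the unmarked genes held 263 (Otx1), 245 (Emx2) and 268 (En1) CpG. The marked genes held 272 (En2), 216 (Emx1), 200 (Otx2), 151 (Pitx1) and 135 (Pitx3), and the all-gene median was 96. The 3 unmarked genes thus lay inside the range of the marked ones and above 4 of the 5. Of the 5850 genes with 135 to 272 CpG, 22.3% had a promoter peak in both wild-type lists of experiment 1, against 20.1% of all genes.

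**Figure D4:**
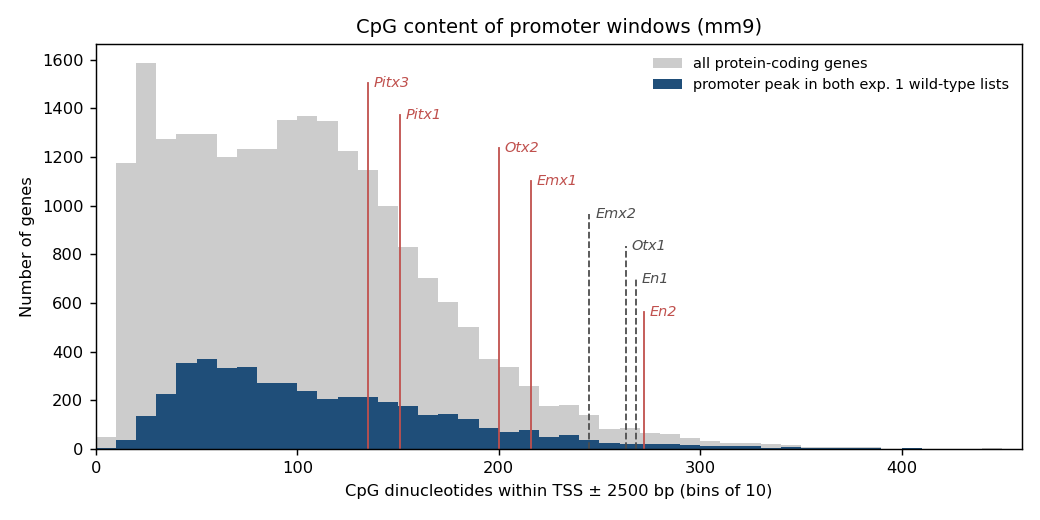
Number of protein-coding genes (vertical axis) by CpG dinucleotides within TSS ± 2500 bp (horizontal axis, bins of 10), for all genes (grey) and for genes with a promoter peak in both wild-type lists of experiment 1 (blue). Vertical lines mark the 8 genes, solid where the promoter was under peaks in both of those lists and dashed where it was not. The dashed lines, at 245, 263 and 268, lie between Emx1 at 216 and En2 at 272.

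Deletion of Ezh2 was then compared with wild type in experiment 1. Otx2, Emx1, Pitx1 and Pitx3 had 0% of the promoter and 0% of the gene body under listed peaks in both knockout libraries, whose scaling before peak calling is not known. These 4 genes therefore had promoter peaks in both wild-type lists and in neither knockout list, as had 18.6% of all genes. At the promoter the differences equal the wild-type means given above, and over the gene body they were 78.1 percentage points at Otx2, 69.2 at Emx1, 83.5 at Pitx1 and 77.3 at Pitx3. The groups did not overlap at any of these genes, and each difference had p = 0.33 in the two-sided exact permutation test (n = 2 and 2). Promoter coverage of both wild-type lists exceeded that of both knockout lists at 5 of the 8 genes and at 19.6% of all genes. For gene body coverage it did so at 5 of the 8 and at 29.7% of all genes. The nearest knockout peaks lay 71021 and 71073 bp from the Pitx3 start and at least 294165 bp from the starts of Otx2, Emx1 and Pitx1.

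En2 kept peaks in both knockout libraries of experiment 1. Its promoter had 40.0% and 26.0% under peaks (33.0% ± 9.88, SD, n = 2), against 64.1% and 63.1% in wild type. Both knockout values were below both wild-type values, the difference was 30.6 percentage points (p = 0.33, two-sided exact permutation test, n = 2 and 2), and the knockout mean was 51.9% of the wild-type mean. The separation depended on the window. Within 1000 bp of the start the wild type had 36.8% and 35.5% and the knockout 35.8% and 17.2%, so the groups overlapped, with a difference of 9.62 points (p = 0.67, exact permutation test). Over the gene body the knockout libraries covered 13.1% and 16.2% (14.6% ± 2.18, SD, n = 2) and the wild type 81.8% ± 1.85 (SD, n = 2), leaving 17.9% of the wild-type mean. A larger share of the coverage was therefore left at the promoter than over the whole gene. Promoter peaks in both knockout lists were found at 4.47% of all genes, and at 3.35% of the 4506 genes with promoter peaks in both wild-type lists.

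The knockout peaks of En2 stood on either side of its start. The first library had a peak of 1073 bp that ended 285 bp upstream (chr5:28490879-28491951) and an intronic peak of 1271 bp that began 1575 bp downstream (chr5:28493811-28495081). The second had a peak of 345 bp ending 354 bp upstream (chr5:28491538-28491882) and an intronic peak of 2552 bp beginning 1546 bp downstream (chr5:28493782-28496333). The inner edges in wild type lay at nearly the same places, so that over the 4 lists the upstream edge moved by 89 bp, the downstream edge by 42 bp, and the peak-free stretch was 1797 to 1899 bp long. The outer edges differed, since the wild-type regions ran on for many kilobases where the knockout peaks ended. Of the wild-type region of 3013 bp inside the gene, 42.2% and 84.7% was under knockout peaks, against 4.52% and 1.45% of the region of 23730 bp upstream and 0% of that of 13801 bp downstream. Within the promoter, 2 intervals lay under peaks in all 4 lists, of 345 bp upstream (chr5:28491538-28491882) and 926 bp downstream (chr5:28493811-28494736). The central 300 bases of the upstream interval, chr5:28491560-28491859 on the plus strand, are shown as the En2 sequence under peaks with and without Ezh2, with its 11 CpG in capitals.
En2 upstream interval: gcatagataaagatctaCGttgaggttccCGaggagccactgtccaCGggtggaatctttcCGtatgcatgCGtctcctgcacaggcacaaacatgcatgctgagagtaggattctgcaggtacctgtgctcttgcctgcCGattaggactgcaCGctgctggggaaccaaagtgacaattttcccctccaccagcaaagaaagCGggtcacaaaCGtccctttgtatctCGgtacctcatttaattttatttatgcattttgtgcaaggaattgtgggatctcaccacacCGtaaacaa

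Knockout peaks were unevenly spread over the genome in experiment 1, and En2 lies on the chromosome that held an excess. Chromosome 5 held 6.66% and 6.33% of the bases under peaks in wild type and 21.2% and 21.7% in knockout. Promoter peaks were present at 13.1% and 15.1% of chromosome 5 genes in the 2 knockout lists and at 6.61% and 7.62% of genes elsewhere. Of genes marked in both wild-type lists, 21 of 272 on chromosome 5 (7.72%) and 130 of 4234 elsewhere (3.07%) had peaks in both knockout lists. The part of this imbalance in the En2 values was not tested.

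In experiment 2, few of the genes carried peaks in wild type. Pitx3 was the 1 gene of the 8 with promoter peaks in both wild-type lists and in neither knockout list, as had 3.0% of all genes. Its promoter was at 39.7% and 44.7% in wild type (42.2% ± 3.53, SD, n = 2) and at 0% in both knockout libraries (p = 0.33, two-sided exact permutation test). Its gene body was at 27.1% and 19.4%, against 0%. In both wild-type lists the Pitx3 peak nearest to the start began 215 bp downstream of it, and neither list had a peak in the upstream part of the promoter, where both lists of experiment 1 had one. Both wild-type lists exceeded both knockout lists at Pitx3 alone among the 8, at the promoter (3.03% of all genes) and over the gene body (11.1% of all genes).

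Pitx1 had a promoter peak in 1 of the 2 wild-type libraries of experiment 2. The values were 0% and 25% in wild type (12.5% ± 17.6, SD, n = 2) and 0% in knockout, and the peak of 1500 bp was intronic. Otx2 and En2 were at 0% in all 4 libraries, at the promoter and over the gene body, although both were widely covered in the wild type of experiment 1. Platform, read length and antibody change with the experiment and cannot be told apart. Over all genes, a promoter peak was present in either wild-type list of experiment 2 at 10.0%, and in both lists at 3.11%.

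Emx1 went the other way at its promoter in experiment 2. The wild-type libraries both gave 0%, whereas the knockout libraries gave 0% and 46.0% (23.0% ± 32.5, SD, n = 2), so that the groups overlapped. The first knockout list had a promoter peak at 0 of the 8 genes and at 0.0402% of all genes. In the second knockout list 2 peaks made up the 46.0%, of 1050 bp across the start (chr6:85136551-85137600) and of 1250 bp largely in an intron. Another peak, of 1000 bp, lay in an intron 2969 bp downstream of the start, outside the promoter. The second list had promoter peaks at 84 genes, or 0.376%, and at 29 of them, 0.130% of all genes, neither wild-type list had one. Of the 84 genes, 77 (91.7%) had promoter peaks in both wild-type lists of experiment 1, as Emx1 did. Under the wild-type peaks of experiment 1 lay 78.5% and 81.7% of the Emx1 bases of this knockout list, and under those of experiment 2 none. Over the gene body of Emx1 the wild type of experiment 2 had 7.03% and 5.37%, from peaks inside the gene but outside the promoter, and the knockout 0% and 12.2%. At an alternative Emx1 transcript start, at position 85143513, wild type was the higher, with 25% and 18.0% against 0% and 7.76%. This start was picked as the annotated start with the most peak coverage, so its window was chosen from the peaks themselves.

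The rescues were compared as 1 library each, with no replicate check and no test. The Ezh1 rescue list held promoter peaks at the 5 genes that were marked in the wild type of experiment 1 (28.2% of all genes), and the Ezh2 rescue list at 4 of them (18.8% of all genes). Otx1, Emx2 and En1 had none in either. The Ezh1 rescue covered the larger share at all 5, as it did at 26.9% of all genes, and over the gene body at 5 of the 8 and at 40.3% of all genes. At Otx2 the promoter values were 94.0% with Ezh1 and 0% with Ezh2, and the gene body values 96.6% and 4.26%. A promoter peak in the Ezh1 but not the Ezh2 rescue was found at Otx2 alone among the 8 genes and at 10.8% of all genes. Of the 13416-bp wild-type region over the Otx2 start, 91.4% lay under Ezh1 rescue peaks and 0% under Ezh2 rescue peaks.

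The other marked genes kept peaks in both rescues. Pitx1 was at 100% in the Ezh1 and 23.0% in the Ezh2 rescue, and En2 at 76.0% and 35.0%. Emx1 was at 98.0% and 68.0%, and Pitx3 at 100% and 78.0%, so these 2 genes had the smallest gaps, of 30.0 and 22.0 percentage points. Of the 3910 genes with peaks in both rescues, 92.2% had more coverage in the Ezh1 rescue, as had 4 of 4 of the genes described here. Since it is not known whether the coefficient for the Ezh1 rescue was applied, the 2 lists may not be on the same footing. Coverage counts bases under called peaks. It gives neither the height of the mark nor its full breadth, since bases outside peaks may carry it. The difference in total covered bases between the lists moves with these values, and its part in them was not tested.

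For each of the 8 genes the nearest gene with a separate promoter was taken on either side. Promoter peaks were present in both wild-type lists of experiment 1 at 4 of these 16 neighbours, a share near the 20.1% of all genes. Elovl3, a fatty acid elongase gene whose start lies 16478 bp from that of Pitx3, had 63.6% and 62.3% in the wild type of experiment 1, 0% in both knockout libraries, and 18.0% and 26.7% in the wild type of experiment 2. Its values thus followed those of Pitx3, whose gene body window it enters, so the Pitx3 body values include bases of Elovl3. Cnpy1, downstream of En2, had 47% and 77.8% in wild type and, unlike En2, 0% in both knockout libraries of experiment 1. Spr-ps1 upstream of Emx1 had 23.4% and 33.2%, and Marco, a scavenger receptor gene 97334 bp upstream of the unmarked En1, 27.4% and 46.8%. Insig1, upstream of En2 on chromosome 5, had 28.7% in the first knockout library of experiment 1 and 0% in every other list.

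Genes with the most similar promoter coverage over the 10 lists were found by Euclidean distance in percentage points. For Emx1 these were the homeobox genes Cux2 (8.88 points) and Uncx (12.8 points). Their peaks in the second knockout library of experiment 2 covered 46.2% and 38.0%, and they had none in any other knockout list. For En2 they were the homeobox genes Six2 (26.4 points) and Barhl2 (30.6 points), and both kept peaks in the 2 knockout libraries of experiment 1, at 27.9% and 27.4% for Six2 and 14.3% and 18.8% for Barhl2. For Otx2 they were Taar3 (9.31 points), a trace amine receptor, and Slc15a1 (9.77 points), a peptide transporter, with 100% and 99.5% in the Ezh1 rescue and no promoter peak in that of Ezh2. For Pitx1 they were BC055004 (17.6 points) and Dgki (18.1 points), and for Pitx3 1700106J16Rik (12.5 points) and Galnt9 (13.7 points). The knockout and rescue lists were part of the distance, so likeness in those lists follows from how the genes were chosen and is not a separate result. The points share libraries, so this likeness is a description without a test.

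A list of 44 other regulators and effectors of head, midbrain and limb patterning gave the setting of these values. Promoter peaks were present in both wild-type lists of experiment 1 at 34 of the 44 (20.1% of all genes), of which 27 had none in either knockout list. Over all genes, 18.6% had promoter peaks in both wild-type lists and in neither knockout list. Of all genes marked in both wild-type lists, 7.61% had a promoter peak in either knockout list. The 6 with the highest wild-type means were Pax5, Lhx5, Six3, Pax6 and Dmbx1, each at 100%, and Lhx1 at 95.7%. Like En2, 6 of the 34 had peaks in both knockout lists of experiment 1, against 3.35% of all genes marked in both wild-type lists. Among the 6 were the LIM homeobox genes Lmx1a, Lmx1b, Lhx1 and Lhx5 and the homeobox gene Gsc. Lhx1, a partner of Otx2 in head formation, had 77.3% and 97% in knockout against 93.9% and 97.6% in wild type, so there the groups overlapped. They overlapped also at Gsc, with 25% and 29.7% in knockout and 18.6% and 48.7% in wild type. Another 4 genes had peaks in a knockout list of experiment 1, namely Sp8 in both, at 26.6% and 29.9% with 0% in wild type, and Tbx5, Tbx3 and Crx in the second.

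In experiment 2 the second knockout list had promoter peaks at 4 of the 44 genes and at 0.376% of all genes. The 4 were Wnt1 (11%), Wnt3a (40.9%), Six3 (13.0%) and Shh (21.0%), secreted signals apart from Six3, a homeobox gene of the forebrain. Wnt3a was also the 1 gene of the 44 with a peak in the first knockout list, at 20%, where 0.0402% of all genes had one. Thus Emx1 was not alone among head patterning genes with a peak in the second knockout list. The Ezh1 rescue list had promoter peaks at 32 of the 44 genes (28.2% of all genes) and the Ezh2 rescue list at 28 (18.8% of all genes). Coverage was larger in the former at 31 of the 44 and at 26.9% of all genes.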

How the data were processed

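H3K27me3 ChIP-seq chromatin was cut with micrococcal nuclease. The authors mapped reads to mm9, took out duplicates, thinned each library to an equal read number with coefficients for knockout and Ezh1 rescue cells, and called peaks in each sample against input. Tools in the submitters' processing notes are HOMER 3.17, MACS2 2.0.10, SAMtools, Bowtie2 2.1.0 and Bowtie 0.12.8. The deposited lists used here give peak positions alone (chromosome, start, end), without scores or heights. The number of reads behind each peak is therefore unknown, and a base outside peaks may carry the mark below the caller's threshold. The shortest peaks were 150 bp in experiment 1 and 550 bp in experiment 2. The 2 input samples were not analysed here.

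Overlapping peaks were merged, positions were counted from 1, and percentages of windows under peaks were computed with Python 3.11.15 and NumPy 2.4.6. The TSS was the 5′ end of the gene. A gene had a promoter peak where at least 1 bp overlapped. The coverage code was tested on 3600 simulated windows, with 0 mismatches. Wild type and knockout were compared within experiments by a two-sided exact permutation test, and counts were set beside the same counts over all protein-coding genes. The 8 genes and the gene lists were chosen with earlier results of these data known. The genes named were the 8, their nearest neighbours with peaks, the 2 most similar genes of each, and of the list of 44 the 6 with the highest wild-type means and those with a knockout peak. Sequences were read from the NCBIM37 (mm9) genome. Some items that these rules would name are not reported here. Alternatives were other windows, peak widths, joined peaks, transcript starts, a larger overlap, leaving out each replicate and a replicate block.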

Additional observations from a re-analysis of the deposited data

How the results depend on the processing

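Of 73 recomputed counts of genes 68 stayed within 1.5 times the reported count, and of 288 values of single genes 283 did not turn their direction. Both tallies include the replicate block, which alters p-values alone, so its counts and values could not move. Of these 288 values 136 belong to reported differences of 0, and none could reach significance in a design whose smallest p is 0.33. The counts that moved all belong to experiment 2 and rose from 1 to 2. Without the first wild-type replicate this held for promoter coverage, for promoter peaks in wild type and not in knockout (Pitx1 joined Pitx3), and for gene body coverage. It held for gene body coverage also without the second knockout replicate. For promoter coverage it held when the annotated transcript start with the most peak coverage was taken for each gene. Leaving out 1 replicate at a time thus gave 1 to 2 genes for each of these counts. Some counts changed within the bound of 1.5 times. Genes with more promoter coverage in the Ezh1 than in the Ezh2 rescue were 4 instead of 5 with nearby peaks joined. Those with an Ezh2 rescue peak were 3 instead of 4 within 1000 bp of the start. The gene body count of experiment 1 was 6 instead of 5 without the first wild-type replicate. Emx1 in experiment 2 was the gene whose direction turned. Its promoter difference, wild type minus knockout, was -23.0 points at the gene's 5′ end and 17.6 at the alternative start, which was chosen by its peak coverage. Its gene body difference, 0.0925 points in the reported fit, was -6.11 with peaks of at least 1000 bp, -0.555 with nearby peaks joined, and -6.01 to 6.20 when replicates were left out in turn, below 0 without the first knockout (-6.01) or the first wild-type replicate (-0.740). The En2 promoter difference in experiment 1 was 9.62 points within 1000 bp of the start, where En2 no longer separated the groups and the count of genes that did was 4 instead of 5, and 48.6 within 5000 bp, and 23.6 to 37.6 when replicates were left out. The correlation of deviations between libraries with the same replicate number was 0.03 in experiment 1 and -0.03 in experiment 2. Few genes had a promoter peak in the knockout lists (6.99% and 8.06% in experiment 1, 0.0402% and 0.376% in experiment 2). These correlations thus had little room to show pairing, and whether the numbers mark pairs is not known. With the replicate as a block the smallest p is 0.50. The block alters the p-values alone, so its differences and counts equal the reported ones by construction. For promoter and gene body coverage alike, both wild-type lists exceeded both knockout lists at 5 genes in experiment 1 and 1 gene in experiment 2. The cause of the changes under the other settings was not tested. Covered bases differ between lists and no scores are given, so an absent peak is not an absent mark.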
